A study of Mus musculus with 6 samples.

Results

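The genes of the cytosolic ribosomal proteins were described in the upper (maxillary) first molars of mice, taken on postnatal day 1. The set holds every gene symbol made of Rpl or Rps followed by a number and at most the letter a, as in Rpl5 or Rps27a. In all, 71 of the 24972 genes in the deposited tables had such a symbol, 43 for proteins of the large ribosomal subunit (Rpl) and 28 for the small subunit (Rps). The rule used the names only and no measured value. It leaves out 9 core ribosomal protein genes with other kinds of symbol, among them Rplp0, Rpsa and Rps3a1, which are given separately.

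The study compared whole molars of 3 genotypes, Ascl5WT/WT (the control), Ascl5Mut/WT with 1 mutant allele and Ascl5Mut/Mut with 2, to ask how a mutation of Ascl5 alters transcript levels. The product of Ascl5 is a transcription factor of the basic helix-loop-helix family. Each genotype had 2 libraries of total RNA made with a stranded kit. The labels name no strain, do not say what the mutation is, and leave the number of animals or teeth per library unstated, so the p-values below measure only the spread between these samples. Because the tissue is bulk, fewer cells of a type and less RNA per cell cannot be told apart.

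A ribosome joins a large subunit, where peptide bonds are formed, and a small subunit, where the codons of the messenger RNA are read. Each subunit is a scaffold of ribosomal RNA that carries a fixed set of ribosomal proteins, each usually present in a single copy, so their messenger RNAs are made in abundance in growing tissue. In mammals these genes share a start site rich in pyrimidines that ties their translation to growth signals, and most have left processed pseudogenes across the genome.

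Normalized counts summed to between 12304814 and 13118122 per library. The low values lay near multiples of a step of 109 to 140, read here as the value of 1 counted read. This puts the estimated depth, meaning reads counted for genes and not all reads sequenced, at 90476 to 117145 per library. A value of 1000 thus stands for about 7.15 to 9.20 estimated reads. Genes listed at 0 made up 66.6% to 71.0% of a library. None of 12 dental epithelium and 12 dental mesenchyme markers was at 0 in all 6 libraries, and their sums ran from 9478 to 65362 and from 34719 to 130626. Detection was weak for some: Amelx, Lhx8 and Pax9 were above 0 in only 1 library each, at 127, 137 and 140, about 1 read. A few genes held much of the sums, with Krt14 at 6362 to 36780 and Col1a2 at 8445 to 60762. The Ascl5WT/WT libraries stand in both tables, which were normalized separately, and their values are those of the Ascl5Mut/Mut table unless the Ascl5Mut/WT comparison is described. The strand setting used for counting is not given in the sources used here. In 3 pairs of genes on opposite strands the partners differed widely: Copg2 stood at 52675 to 196278 against 4987 to 6990 for Mest, and Gm11532 exceeded Sp6 in all 6 libraries. Tsix was at 126014, 310649 and 259527 in the replicate 2 libraries and at 0 in each replicate 1 library, against 322 to 9751 for Xist. A value listed for a ribosomal protein gene may therefore leave out reads of its own strand or be made up of reads of the opposite strand. This was not tested, and it bears on every level, zero and subunit ratio below.

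Together the 71 genes took only 1.33% to 2.24% of the normalized counts of a library. By the median over the 6 libraries, 12 genes reached 5000 (10 large-subunit and 2 small-subunit), 24 lay between 1000 and 5000, and 35 lay under 1000. The 10 highest genes held 56.6% to 65.1% of the summed ribosomal protein counts of a library and the 3 highest 24.0% to 34.4%. Levels of genes whose products sit in the ribosome in equal number were thus spread from 0 to 39808.

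**Figure D1:**
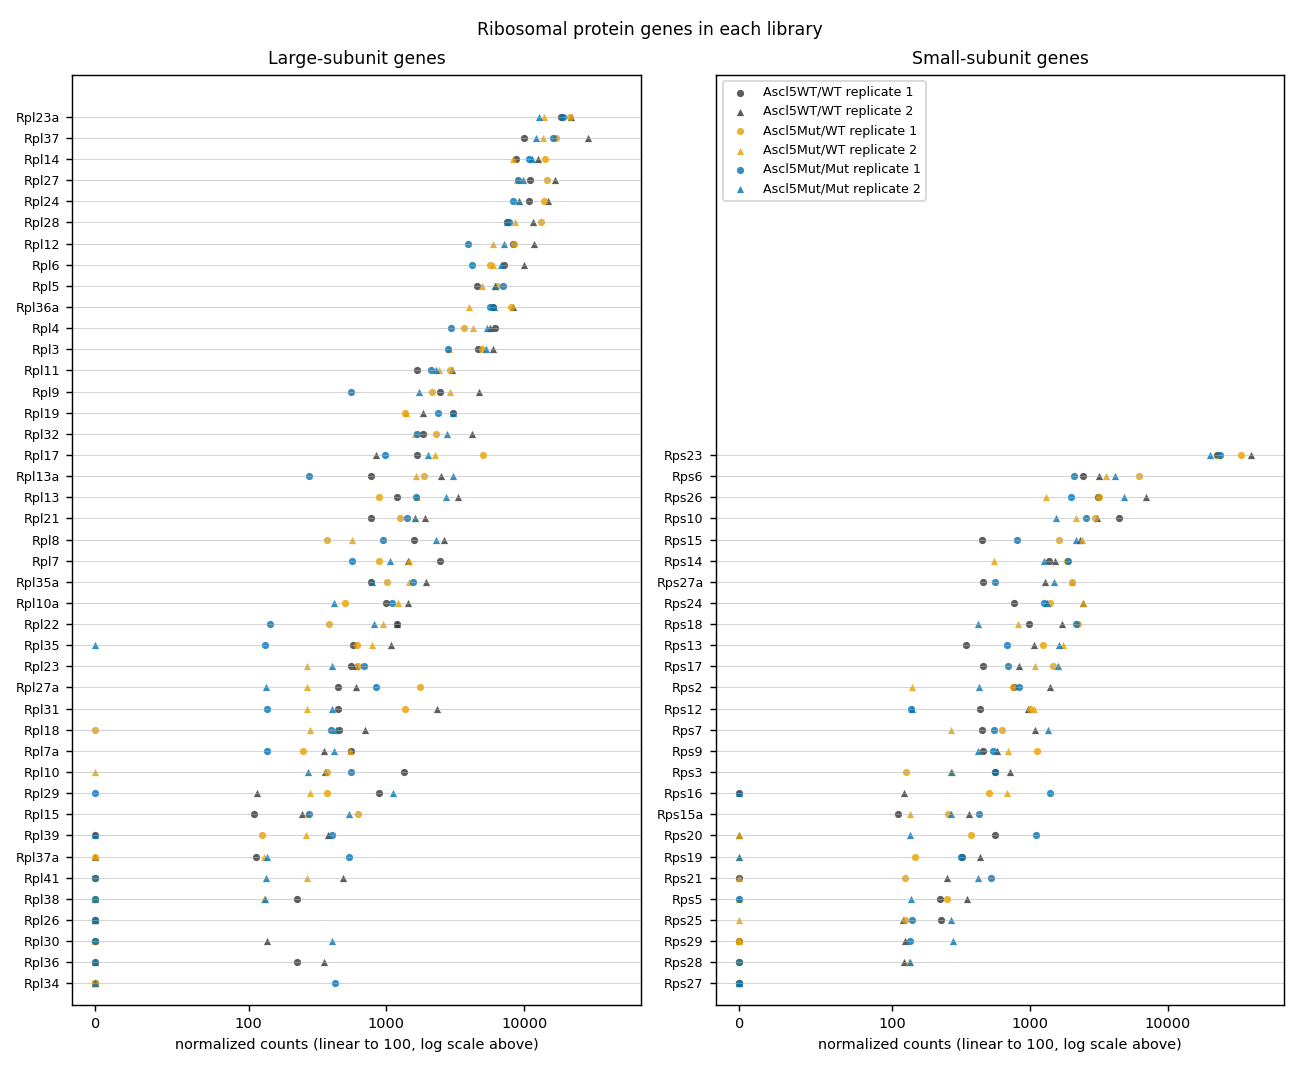
Normalized counts (horizontal axis, linear to 100 and log scale above) of 42 large-subunit and 26 small-subunit genes, each gene on a line, ordered by its median over the 6 libraries. Colours mark the genotype and symbols the replicate. Levels run from 0 in all 6 libraries for Rpl26 and Rps27 to 39808 for Rps23 in Ascl5WT/WT replicate 2.

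Rpl23a had the highest mean per kilobase of exon in Ascl5WT/WT molars, 36189 normalized counts per kb. Its protein lies at the exit of the tunnel through which the new peptide leaves the large subunit. Rpl23a (chr11:78180932-78183584, minus strand, mm10) read 18642 and 21890 in the Ascl5WT/WT libraries, 21420 and 13963 in Ascl5Mut/WT, and 19033 and 12786 in Ascl5Mut/Mut. In each mutant genotype 1 library lay between the controls and the other below them. Rps23, whose protein lies in the decoding centre of the small subunit, was next at 33350 per kb. Its Ascl5WT/WT libraries (24216 and 42484 per kb) enclosed those of Rpl23a (33290 and 39089), so the order of these genes is within their spread.

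Further high levels were 23308 per kb for Rpl37, 18902 for Rpl24, 15784 for Rpl27, 14832 for Rpl36a and 10521 for Rpl14, all large-subunit genes. The Ascl5WT/WT libraries of Rpl37 lay far apart, at 11933 and 34682 per kb, and overlapped those of each of these other genes. Rpl24, a protein at the bridge between the subunits, had 15981 and 21822 per kb, overlapping Rpl27 at 12603 and 18965.

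Rps23 (chr13:90922958-90924950, plus strand, mm10) also has copies of its sequence, in reverse complement, inside the annotated exons of C330021F23Rik and Gm5148 on other chromosomes. These genes were looked up after the values had been seen. The stretches below, taken from the mm10 genome, show the shared sequence in each gene's own reading direction. Capitals would mark a base that differs from the reverse complement of Rps23, and there is none in these 30 bases. The stretch was picked as coding bases of Rps23 that both genes match best. Its lack of differences therefore does not measure how closely the whole copies match.
Rps23, coding sequence, chr13:90923587-90923616, plus strand: gcaagtgtcgtggtctccgaactgcccgga
C330021F23Rik, chr8:3584197-3584226, plus strand: tccgggcagttcggagaccacgacacttgc
Gm5148, chr3:37714744-37714773, minus strand: tccgggcagttcggagaccacgacacttgc

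Rps23 read 22690 and 39808 in the Ascl5WT/WT libraries, 33973 and 23611 in Ascl5Mut/WT, and 23863 and 20051 in Ascl5Mut/Mut. Gm5148 read 107488 and 140669 in Ascl5WT/WT, 112154 and 75450 in Ascl5Mut/WT, and 85195 and 78120 in Ascl5Mut/Mut. The gene listed with the reverse complement thus exceeded Rps23 itself in all 6 libraries, by 3.20 to 4.74 times. C330021F23Rik stood at 37696 to 48320, or 1.21 to 2.00 times Rps23. Reads of Rps23 transcripts and reads of these genes cannot be separated in this stretch unless strand is used, so the values of all 3 are uncertain.

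**Figure D2:**
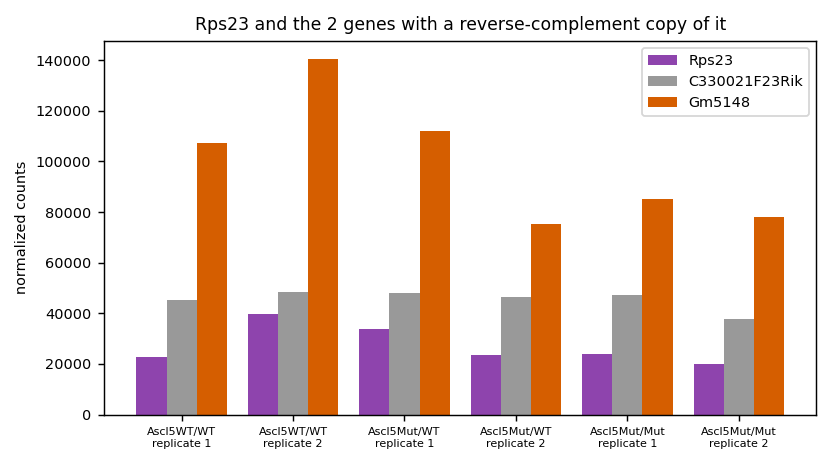
Normalized counts (vertical axis) of Rps23, C330021F23Rik and Gm5148 in each of the 6 libraries (bars). Gm5148 is the tallest bar and Rps23 the shortest in all 6 libraries.

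Across the set, at least 100 stretches of 50 bases of a gene's exons were present in reverse complement in another annotated gene of the tables for 13 ribosomal protein genes, giving 15 pairs. In 9 pairs the other gene lay opposite at the same locus and in 6 elsewhere. Of the 15 genes holding such a copy, 6 had a mean over the libraries of at least 1000, a level that 9.29% of all genes reached. Fam69a, opposite Rpl5, stood at 10004 to 40239 against 4520 to 7071 for Rpl5, whose protein binds a small ribosomal RNA and, outside the ribosome, the p53 regulator Mdm2. Sphk2, opposite Rpl18, read 5286 to 9528 while Rpl18 read 0 to 697, and Tbc1d8, opposite Rpl31, read 2831 to 8548 while Rpl31 read 136 to 2312. The other 9 stood low: Gadl1, Nphs1, Med21 and Trappc4, with copies of Rpl24, Rps12, Rps26 and Rps25, were at 0 in all 6 libraries.

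Exons of 18 ribosomal protein genes overlapped a gene on the opposite strand, and for 14 of these the opposite gene was in the tables. The direction of the difference varied. Nkiras1 stood at 7167 to 13905 against 110 to 628 for Rpl15. In contrast, Rpl28 read 7478 to 13210 against 0 to 349 for Ube2s, and Rpl12 read 3941 to 11743 against 138 to 872 for Lrsam1. Tlcd1, over 506 bases of Rpl23a, stood at 938 to 3590, below Rpl23a in all 6 libraries.

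Zeros were common for genes that every growing cell transcribes. Of the 71 genes, 50 were above 0 in all 6 libraries and 21 (12 large-subunit and 9 small-subunit) were listed at 0 in at least 1. Rpl26, a protein near the tunnel exit, and Rps27, a zinc-binding protein of the small subunit, were listed at 0 in all 6. A listed 0 allows up to 3 estimated reads, or 326 to 419 normalized counts by library, and may also be a failed estimate. Rpl34 was above 0 only in Ascl5Mut/Mut replicate 1, at 420, and Rpl30 only in Ascl5WT/WT replicate 2 at 137 and Ascl5Mut/Mut replicate 2 at 403. Rpl36 was above 0 only in the Ascl5WT/WT libraries, at 224 and 350, both under that floor.

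The number of these genes at 0 was 10 and 6 in the Ascl5WT/WT libraries, 9 and 8 in Ascl5Mut/Mut and 11 and 12 in Ascl5Mut/WT. Ascl5Mut/Mut lay within the range of the controls. Both Ascl5Mut/WT libraries lay above both controls, with an exact permutation test two-sided p of 0.333, the smallest that 2 against 2 libraries allow. Over all genes the share at 0 was 67.2% and 68.6% in Ascl5WT/WT and 66.8% and 71.0% in Ascl5Mut/Mut. It was 67.4% and 66.6% in Ascl5Mut/WT, and both mutant genotypes overlapped the controls. Ribosomal protein genes at or under 1 estimated read numbered 13 and 11 in Ascl5WT/WT, 16 and 16 in Ascl5Mut/Mut and 15 and 17 in Ascl5Mut/WT. By this wider count both mutant genotypes lay above the controls, while their estimated depths (90476 to 103321 reads) lay below those of the controls (104767 to 117145 over both tables). The part of depth in these counts was not tested, and the wider count is not given over all genes.

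The 21 genes listed at 0 somewhere had shorter exons, with a median of 795 bases, than the 50 detected in all libraries, with a median of 1089. A small nucleolar RNA lay in an intron of 5 of the 21 and of 22 of the 50. Across the 71 genes the median level followed exon length little (Spearman rho 0.11), the number of processed or other pseudogenes sharing 50-base stretches little (0.06) and the number of intronic small nucleolar RNAs weakly (0.22). The share of a gene's 50-base stretches that occur elsewhere in annotated transcripts had a rho of 0.31 with level. These values describe 71 genes measured in the same 6 libraries.

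The control libraries differed from each other in these genes, mostly in a common direction. Between Ascl5WT/WT replicates, 54 of the 71 genes were higher in replicate 2 (31 large-subunit and 23 small-subunit), 14 were lower and 3 were equal. Among the 34 genes that had a mean of at least 1000 in the Ascl5Mut/Mut table, 28 were higher in replicate 2, with a median ratio of 1.51. Over all genes with that mean, 49.0% were higher in replicate 2 and the median ratio was 0.979. Rpl37 read 9964 and 28960 in these libraries, whereas Rpl4 (6137 and 5641) and Rps10 (4421 and 3065) ran the other way.

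**Figure D3:**
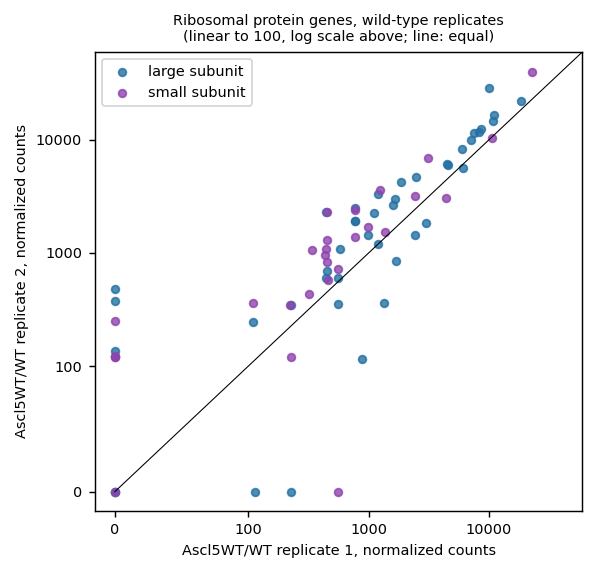
Normalized counts of the 71 ribosomal protein genes in Ascl5WT/WT replicate 1 (horizontal) and replicate 2 (vertical), both axes linear to 100 and log scale above, coloured by subunit. Most points lie above the line of equality, 54 of 71.

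Marker genes of other cells also differed between these libraries. Summed counts of 8 erythroid markers were 787 in Ascl5WT/WT replicate 1 and 23656 in replicate 2, against 3006 to 5224 in Ascl5Mut/Mut and 1390 to 3019 in Ascl5Mut/WT. Among them Hba-a2, Hbb-bs and Hbb-y were at 0 in all 6 libraries, while Hba-a1 read 453 and 16400 in the controls. Summed counts of 10 skeletal muscle markers were 983 and 17123 in the controls, 111758 and 6073 in Ascl5Mut/Mut and 34264 and 8676 in Ascl5Mut/WT. Tsix was at 0 in Ascl5WT/WT replicate 1 and at 126014 in replicate 2, and the sample titles give no sex. The part of these differences in the ribosomal protein values was not tested.

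Summed counts of the 71 genes overlapped between the genotypes. They made up 1.45% and 2.23% of the total in the Ascl5WT/WT libraries and 1.33% and 1.52% in Ascl5Mut/Mut. The means were 1.84% ± 0.55 and 1.43% ± 0.134 (SD, n = 2 each), and the ranges overlapped (exact permutation test, two-sided p = 0.667). The total in these shares includes Gm11532, at 869884 and 389895 in Ascl5WT/WT, 2113 and 29497 in Ascl5Mut/Mut and 356431 and 417754 in Ascl5Mut/WT. Shares with Gm11532 left out of the total are not given here. In the Ascl5Mut/WT table the controls had 1.45% and 2.24% and the Ascl5Mut/WT libraries 1.82% and 1.34%. Means of 1.85% ± 0.552 and 1.58% ± 0.334 (SD, n = 2 each) again overlapped (exact permutation test, two-sided p = 0.667). Without Ascl5WT/WT replicate 2 the difference between Ascl5Mut/WT and the control changed from -0.265 to 0.125 percentage points, and that of Ascl5Mut/Mut from -0.408 to -0.0193. With the 9 core genes of other symbols added, the share was 2.52% and 3.41% in the controls and 2.20% and 2.41% in Ascl5Mut/Mut, both under both controls (exact permutation test, two-sided p = 0.333, the smallest possible). For Ascl5Mut/WT this fuller share still overlapped its controls, with means of 2.43% ± 0.465 and 2.98% ± 0.635 (SD, n = 2 each; exact permutation test, two-sided p = 0.667).

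The balance between the subunits differed between the groups. Small-subunit genes summed to 0.409 and 0.434 times the large-subunit genes in the Ascl5WT/WT libraries. The ratio was 0.458 and 0.455 in Ascl5Mut/Mut, both above both controls, with means of 0.456 ± 0.00211 and 0.421 ± 0.0179 (SD, n = 2 each). In Ascl5Mut/WT it was 0.495 and 0.519, against 0.409 and 0.435 for the controls in the same table, with means of 0.507 ± 0.0168 and 0.422 ± 0.0180 (SD, n = 2 each). Each comparison had an exact permutation test two-sided p of 0.333, the smallest possible, and both use the same control libraries. With the 9 core genes of other symbols added, the ratio was 1.35 and 1.13 in the controls, 1.32 and 1.24 in Ascl5Mut/Mut and 1.23 and 1.33 in Ascl5Mut/WT, and the groups overlapped (exact permutation test, two-sided p = 1 in each). The separation of the ratio thus held for the genes chosen by symbol and not for the fuller set. In the fuller set Rps3a1 alone, at 92407 to 133766, exceeded the sum of the small-subunit genes chosen by symbol, at 53497 to 84684, in all libraries. Whether the separation holds with the other core genes added and Rps3a1 left out was not tested.

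**Figure D4:**
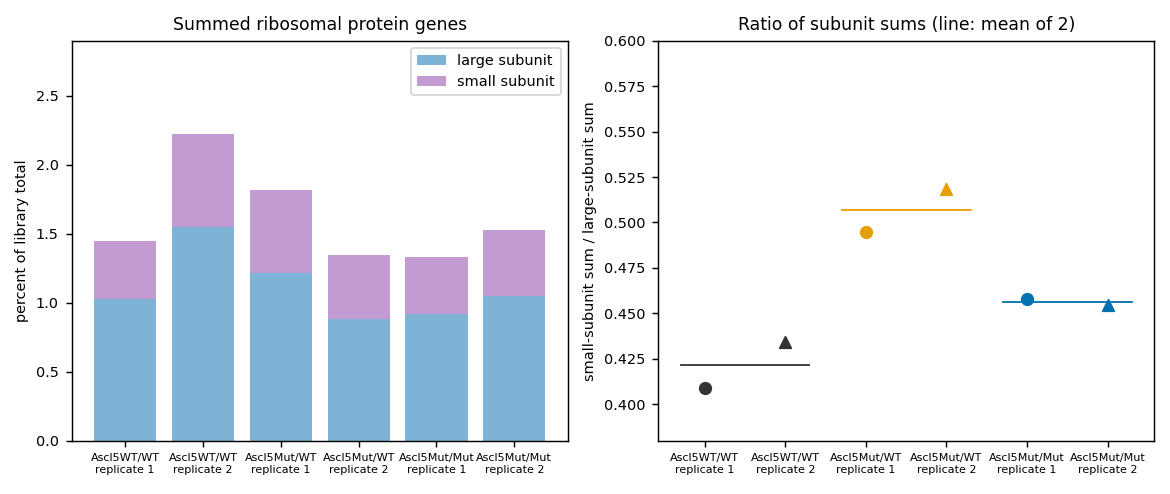
Left, large-subunit and small-subunit genes as percent of the library total (stacked bars from 0). Right, small-subunit sum over large-subunit sum per library (points; the axis does not start at 0) with the mean of 2 libraries (line). Ascl5Mut/WT values come from their own table and the others from the Ascl5Mut/Mut table; the 4 mutant libraries sit between 0.455 and 0.519, above the controls at 0.409 and 0.434.

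In Ascl5Mut/Mut molars no ribosomal protein gene passed the test against Ascl5WT/WT, and most of those tested read lower. The test was limma on log2(value + 120) over the 2336 genes with a mean of at least 1000, which 34 of the 71 passed, 24 large-subunit and 10 small-subunit. With Benjamini-Hochberg adjustment limma called 0 of the 34 (smallest adjusted p = 0.430, Rpl9), against 0.856% of all genes tested. At an unadjusted p under 0.05 it had 1 of the 34, against 11.2%. The median fold change on the log2(value + 120) scale was -0.34, against -0.02 for all genes tested. Log2 fold changes were below 0 for 24 of the 34, against 50.8%, and their standard errors had a median of 0.59, so a shift of the median size in a single gene was within the error.

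Large-subunit genes had a median log2 fold change of -0.37, with 18 of 24 below 0, and small-subunit genes -0.21, with 6 of 10 below 0. Both Ascl5Mut/Mut libraries lay under both controls for 10 of the 34 genes, 8 large-subunit and 2 small-subunit, against 21.8% of all genes tested. No gene had both mutant libraries above both controls, against 22%. The median log2 fold change was 0 to 2 decimals (-3.6e-05) without Ascl5WT/WT replicate 2, the control library with the higher ribosomal protein counts. The downward reading of the set in Ascl5Mut/Mut therefore depended on that library.

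Rpl9, a protein near the base of the factor-binding stalk, read 2460 and 4694 in the Ascl5WT/WT libraries and 553 and 1739 in Ascl5Mut/Mut. The groups did not overlap, and the log2 fold change was -1.66 (SE 0.72). Its values in Ascl5Mut/Mut rest on few reads.

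Rpl7 read 2449 and 1436 in the controls against 563 and 1061 in Ascl5Mut/Mut (log2 fold change -1.15, SE 0.81). Rpl12, a protein of the stalk base where elongation factors bind, read 8331 and 11743 against 3941 and 7135 (-0.88, SE 0.46). Rpl6 read 7084 and 10001 against 4186 and 6769 (-0.65, SE 0.45). Each of these large-subunit genes had both mutant libraries under both controls, as had Rpl24, Rpl27 and Rpl4. In limma none of Rpl7, Rpl12 and Rpl6 had an adjusted p under 0.508.

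Among small-subunit genes, Rps10, a protein at the entry of the messenger RNA channel, read 4421 and 3065 in the controls and 2531 and 1538 in Ascl5Mut/Mut (log2 fold change -0.86, SE 0.57). Its groups did not overlap.

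At the upper end stood Rpl5 and Rps15, both at a log2 fold change of 0.31, Rpl21 at 0.27, Rpl17 at 0.21 and Rpl19 at 0.17. Rpl5 read 4520 and 6126 in the controls and 7071 and 6116 in Ascl5Mut/Mut. Its groups overlapped, as did those of Rps15, Rpl21, Rpl17 and Rpl19, and the value of Rpl5 was within its standard error of 0.44.

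**Figure D5:**
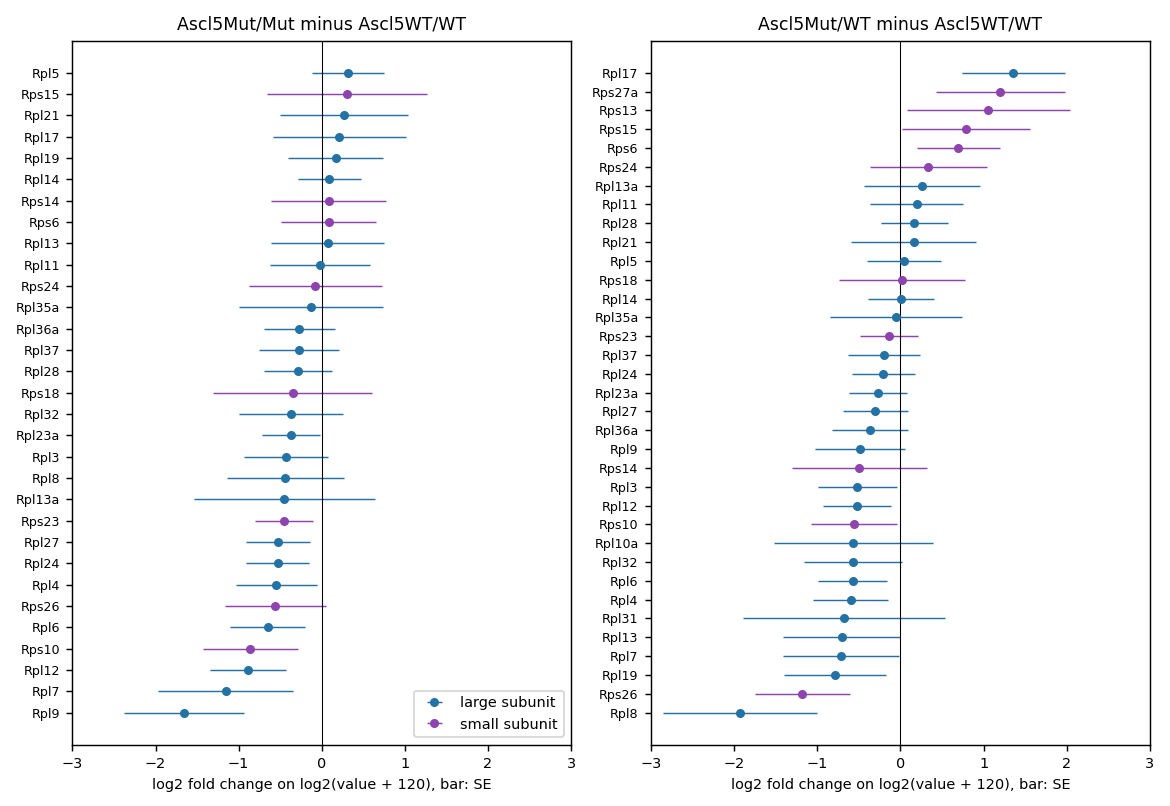
Log2 fold change (mutant minus Ascl5WT/WT on log2(value + 120), points, with standard error bars) of tested ribosomal protein genes, 31 for Ascl5Mut/Mut (left) and 35 for Ascl5Mut/WT (right), coloured by subunit. Both panels share the Ascl5WT/WT libraries. Points run from -1.66 to 0.31 on the left and from -1.93 to 1.36 on the right.

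In Ascl5Mut/WT molars no ribosomal protein gene passed the test either. Of the 71 genes, 38 had in their table a mean of at least 1000, 26 large-subunit and 12 small-subunit, among 2370 genes tested. Limma with Benjamini-Hochberg adjustment called 0 of the 38 (smallest adjusted p = 0.527, Rpl17), against 0.549% of all genes tested, and 1 of the 38 had an unadjusted p under 0.05, against 8.73%. The median log2 fold change was -0.24, against 0.04 for all genes tested, and 23 of the 38 were below 0, against 47.9%. Without Ascl5WT/WT replicate 2 that median became 0.28, and without Ascl5Mut/WT replicate 2 it became 0.03, so its sign rested on single libraries.

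Large-subunit genes had a median log2 fold change of -0.43, with 19 of 26 below 0, and small-subunit genes 0.18, with 4 of 12 below 0. Rps27a and Rps13 passed the filter only through the mutant libraries, with means of 2009 and 1483 against 907 and 734 in the controls. Large-subunit genes such as Rpl8 and Rpl31 passed only through the controls, with means of 2168 and 1438 against 469 and 812. The part of the filter in these medians was not tested. The difference between the subunits was not tested gene by gene. The small-subunit core genes outside the symbol rule that were tested here, Rpsa, Rps3a1 and Rps4x, had log2 fold changes of -1.50, -0.36 and -0.31. Both mutant libraries lay under both controls for 9 of the 38 genes (7 large-subunit and 2 small-subunit), against 19.5% of all genes tested. They lay above both controls for 4 (1 large-subunit and 3 small-subunit), against 21.1%.

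Rpl8, a protein close to the site of peptide bond formation, read 1605 and 2730 in the controls of this table and 373 and 565 in Ascl5Mut/WT. The groups did not overlap, and the log2 fold change was -1.93 (SE 0.93, limma adjusted p = 0.566). In Ascl5Mut/Mut, Rpl8 read 947 and 2277, overlapping its controls (1582 and 2631).

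Rpl19 read 3093 and 1943 in the controls and 1354 and 1395 in Ascl5Mut/WT, without overlap (log2 fold change -0.78, SE 0.61). Rpl7 read 2506 and 1503 against 886 and 1453 (-0.71, SE 0.69), and its groups were separated only narrowly. Rpl13 read 1222 and 3432 against 880 and 1674 (-0.70, SE 0.70) and overlapped.

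Rps26, a protein at the exit of the messenger RNA channel, read 3186 and 7213 in the controls and 3186 and 1304 in Ascl5Mut/WT. Its groups met at 3186, and the log2 fold change was -1.18 (SE 0.57). Rps10 was the other small-subunit gene with both libraries under both controls, at 4511 and 3199 against 2971 and 2169 (-0.56, SE 0.52).

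Rpl17, a protein lining the peptide tunnel, had the largest upward difference in Ascl5Mut/WT. It read 1717 and 883 in the controls and 5028 and 2237 in Ascl5Mut/WT, without overlap, for a log2 fold change of 1.36 (SE 0.62, limma adjusted p = 0.527). In Ascl5Mut/Mut it read 971 and 2003 and overlapped its controls (1675 and 843). It was the only large-subunit gene of this comparison with both mutant libraries above both controls.

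The 3 small-subunit genes above both controls were Rps27a, Rps13 and Rps6. Rps27a, made as a fusion with ubiquitin, read 462 and 1351 in the controls and 2002 and 2015 in Ascl5Mut/WT (log2 fold change 1.20, SE 0.78). Rps13, at a bridge to the large subunit, read 349 and 1119 against 1244 and 1723 (1.06, SE 0.98). Rps6, the substrate of the S6 kinases of growth signalling, read 2473 and 3300 against 6181 and 3583 (0.70, SE 0.50).

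Rps15 (log2 fold change 0.79, SE 0.77, limma adjusted p = 0.767) also stood high in Ascl5Mut/WT, but its libraries overlapped the controls. It read 456 and 2397 in the controls and 1618 and 2388 in Ascl5Mut/WT.

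The 9 core ribosomal protein genes outside the symbol rule were led by Rps3a1, a small-subunit gene with 92407 to 133766 counts by itself, against 172194 to 279738 for the 71 genes together. It read 123122 and 133766 in the Ascl5WT/WT libraries, 103448 and 100247 in Ascl5Mut/Mut and 116392 and 92407 in Ascl5Mut/WT. As a share of the library, Rps3a1 had 0.967% and 1.06% in the controls against 0.802% and 0.815% in Ascl5Mut/Mut, and 0.887% and 0.707% in Ascl5Mut/WT against 0.973% and 1.07%. Both mutant genotypes lay under both controls (exact permutation test, two-sided p = 0.333 in each, the smallest possible). Limma gave log2 fold changes of -0.33 (SE 0.22, adjusted p = 0.583) and -0.36 (SE 0.26, adjusted p = 0.693).

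Rpsa, the small-subunit protein also known as the laminin receptor, read 4977 and 6393 in the controls, 2224 and 3284 in Ascl5Mut/Mut and 2389 and 1640 in Ascl5Mut/WT. Its log2 fold changes were -1.03 (SE 0.50) and -1.50 (SE 0.51), and in limma its adjusted p was 0.497 and 0.282. Of these core genes 6 were tested in the Ascl5Mut/Mut table and 5 in the other, and limma called 0 in each. All 6 and all 5 had a log2 fold change below 0, with medians of -0.65 and -1.08.

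Other genes of translation gave no call in limma. Of 33 translation factors 16 were tested in Ascl5Mut/Mut and 15 in Ascl5Mut/WT, with medians of -0.33 and -0.07. Eef2, the elongation factor that moves the ribosome along the messenger RNA, read 13516 and 14377 in the controls, 11624 and 12283 in Ascl5Mut/Mut and 11568 and 12339 in Ascl5Mut/WT. Of 34 genes of ribosome biogenesis 6 and 8 were tested, with medians of 0.14 and -0.12. Of 78 mitochondrial ribosomal protein genes 4 were tested in each table, and the summed counts of the 78 were 74312 and 60258 in the controls, 52560 and 33120 in Ascl5Mut/Mut and 60765 and 56182 in Ascl5Mut/WT. These control sums are those of the Ascl5Mut/Mut table. Within the Ascl5Mut/WT table, normalized separately, both mutant libraries lay under both controls. Without Mrps25, the highest of the 78 genes, the sums were 20612 and 21479, 19312 and 8983, and 22374 and 19479. On these values Ascl5Mut/WT overlapped the controls. Pseudogenes of ribosomal proteins numbered 7 in the tables, none of which reached the mean of 1000.

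Summed counts of 25 genes that every cell uses, such as those of actin and tubulin, were 80873 and 64030 in the Ascl5WT/WT libraries, 40605 and 44690 in Ascl5Mut/Mut and 52799 and 51276 in Ascl5Mut/WT, both mutant genotypes under both controls, with 0 called by limma. The chaperone gene Hsp90ab1 carried this difference, at 46449 and 30996 against 12534 and 11651, and 18521 and 15155. Without it, a sum chosen after the data were seen, the other 24 genes came to 34424 and 33034 in Ascl5WT/WT, 28071 and 33039 in Ascl5Mut/Mut and 34278 and 36120 in Ascl5Mut/WT, and both mutant genotypes overlapped the controls. Summed counts of 9 markers of keratinized oral epithelium were 219 and 540 in the controls against 19515 and 128451 in Ascl5Mut/Mut and 14446 and 49207 in Ascl5Mut/WT, with 3 and 2 of them called higher by limma and none of the 9 at 0 in all 6 libraries. Summed counts of 8 bone and osteoclast markers were 2382 and 8092 against 48862 and 36197, and 33119 and 10622, with 1 and 0 called higher. The part of these differences in tissue make-up in the ribosomal protein values was not tested.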

How the data were processed

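RNA was sequenced from 6 molar libraries, 2 per genotype. The authors deposited normalized counts on a linear scale, treated as a signal, in 2 tables of 24972 genes, each with the Ascl5WT/WT libraries and 1 mutant genotype, normalized separately. Per the submitters' processing notes they used mm10 and DESeq2. For the aligner, annotation and strand setting: not given in the sources used here. Low values were near whole multiples of a read (within 0.1) for only 86.0% to 93.8% per library, so whole reads were not recovered, no count model was run and no counting interval is given; depths and floors are estimates that cover counting error only.

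Each genotype was tested within its table by limma 3.58.1 (R 4.3.3) with an intensity trend, two-sided, on log2(value + 120) over genes averaging 1000 or more in the 4 libraries, with Benjamini-Hochberg adjusted p under 0.05 as a call. This scale understates the change of low genes. The 2 comparisons share the control libraries, and the mutant genotypes were not tested against each other. A gene can pass the filter through the group where it is high, so the genes tested are not a neutral sample of the 71. The fit was tested on simulated data. Sums per library were compared by exact permutation tests (scipy 1.17.1). Exon lengths, overlaps and sequences came from GENCODE M21 on the mm10 genome, with all 71 genes matched. Alternatives changed the pseudocount, filter, scaling, trend, replicate block, denominators and left out each library.

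The genes described singly are the 6 highest and 6 lowest log2 fold changes among those tested in each comparison, the 8 highest Ascl5WT/WT levels per kb, genes at 0 in all 6 libraries, genes called, and genes with an opposite-strand overlap whose values are given; others named, such as Rpl34, Rpl30, Rpl36 and the holders of reverse-complement copies, were chosen after their values were seen. Some genes that the rule picks are not reported here, singly or in the plots by gene, but are in all sums and counts. Members, lists and settings were chosen with earlier results of these data known.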

Additional observations from a re-analysis of the deposited data

How the results depend on the processing

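Limma called 0 ribosomal protein genes in both comparisons under every alternative run, with 0 to 2 (Ascl5Mut/Mut) and 0 to 3 (Ascl5Mut/WT) at an unadjusted p under 0.05. Calls over all genes, 20 for Ascl5Mut/Mut and 13 for Ascl5Mut/WT, became 4 and 8 with a pseudocount of 1, 0 and 0 with that and a minimum mean of 10, and 0 and 0 without the intensity trend. For Ascl5Mut/Mut they became 3 with a minimum mean of 250 and 1 without a filter. Leaving out each library gave 0 to 74 and 0 to 66 calls; the lone library left in a group is assumed to vary like the others. Over all genes tested, libraries with the same replicate number did not deviate together (correlation of deviations -0.013 and 0.023). Tsix and Xist were nevertheless higher in replicate 2 of each genotype, with Tsix at 0 in each replicate 1 library. The labels do not say that a number marks a shared source, and the sample titles give no sex. A replicate block gave 36 and 37 calls over all genes and 0 among ribosomal protein genes. The cause of these changes was not tested.

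Leaving out each library moved the median log2 fold change of the ribosomal protein genes between -0.61 and -3.6e-05 (Ascl5Mut/Mut) and between -0.46 and 0.28 (Ascl5Mut/WT, 0.03 without Ascl5Mut/WT replicate 2), and the difference in summed share between -0.797 and -0.0193 and between -0.656 and 0.125 percentage points. The difference in the subunit ratio for Ascl5Mut/WT, 0.0845, was 0.0652 without Rps23 and 0.0355 with the core genes, Rps3a1 included, added. Directions of single genes also turned when a library was left out, with no call changed. For Ascl5Mut/Mut the log2 ranges were -0.61 to 0.76 for Rpl13, -0.17 to 0.36 for Rpl14, -0.33 to 0.86 for Rpl21, -0.74 to 1.35 for Rps15, -0.39 to 0.56 for Rps6, -0.27 to 0.69 for Rpl17, -0.17 to 0.50 for Rpl19, -1.04 to 0.49 for Rpl37, -1.02 to 0.15 for Rpl8 and -1.17 to 0.057 for Rps26. For Ascl5Mut/WT they were -0.37 to 0.39 for Rpl14 (-0.0020 when scaled to the library total), -0.46 to 0.77 for Rpl21, -0.19 to 0.28 for Rpl5, -0.27 to 1.86 for Rps15, -0.50 to 0.087 for Rpl24, -0.67 to 0.057 for Rpl27, -0.98 to 0.58 for Rpl37, -0.56 to 0.28 for Rps23, -0.58 to 0.031 for Rpl23a and -0.87 to 0.13 for Rpl36a.

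With 1 estimated read worth 109 to 140 normalized counts, genes under 1000 rest on fewer than 9.20 reads, and small differences in them were not detectable at this depth.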
